A study of Homo sapiens with 24 samples.

Results

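H3K27ac was examined at 9 genes used as markers of mammary stem and progenitor cells, namely CD44, CD24, EPCAM, THY1, PROM1, PROCR, ALDH1A3, ALDH1A1 and SOX9. They were chosen by name. A region belonged to a gene when the authors' annotation of that region named the gene as overlapping it or as its left or right neighbour within 10000 bp. The 9 genes are among 21569 symbols named in the 6 deposited tables, and they hold 94 of the 171345 lines. Of these 94 lines, 57 came from the comparison of knockdown with control and 37 from comparisons with input.

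The series is a ChIP-seq study of histone H3 acetylated on lysine 27 (H3K27ac), a modification found at active promoters and enhancers. There were 24 libraries in 8 groups of 3. The 10A groups are MCF10A, a non-tumorigenic human mammary epithelial cell line. The DCIS groups are MCFDCIS, a cell line of the same lineage that models ductal carcinoma in situ. In each line, cells infected with lentivirus carried either a hairpin against ANCO1, the product of the ANKRD11 gene (shANCO1), or a control hairpin (shCTRL). The control hairpin is named shGFP in the deposited tables. Each of these 4 cell populations gave 3 H3K27ac immunoprecipitates and 3 input libraries of sonicated chromatin that was not immunoprecipitated. All populations were grown in the same medium with horse serum, EGF, hydrocortisone, insulin and cholera toxin. The study names a single ANCO1 hairpin line for its ChIP-seq analysis, so an effect of that hairpin and of ANCO1 loss cannot be told apart here. Nothing in the labels says whether the 3 libraries of a group came from separate cultures, and the deposited p-values may therefore measure technical spread.

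Mammary epithelium has an outer basal layer and an inner luminal layer, and cells able to rebuild it are enriched by sorting on surface proteins. CD44 and CD24 are the classical pair for this in breast cancer, where CD44-high, CD24-low cells are enriched for tumour initiation, while EPCAM separates luminal from basal fractions. Aldehyde dehydrogenase activity is a further marker of progenitor cells, and SOX9 is a transcription factor of luminal progenitors that can act with SNAI2 to promote a stem cell state. H3K27ac at a gene describes its regulatory DNA and not its RNA or protein.

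The values are the authors' csaw results per region. csaw counts reads in sliding windows, merges neighbouring windows into a region and combines their p-values. A log2 fold change (log2FC) is that of a representative window of the region, with shANCO1 over shCTRL or immunoprecipitate over input. The false discovery rate (FDR) was the authors' own, adjusted across every region of the same table, and a region is called up or down here at an FDR under 0.05. Only 1 value per region and group comparison was deposited. The spread between replicates, the reads behind a region and the library depth are therefore unknown, and no error can be given beside a log2FC.

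In 10A cells H3K27ac rose at marker regions about as often as at all regions. The 9 genes had 23 tested regions over 7 genes, and 10 of these regions (43.5%) were up, against 43.6% of all 50284 regions. None was down, against 0.225% of all regions. All 23 log2FC were positive, from 0.054 to 1.35. Their median was 0.88, beside a median of 0.76 over all regions, of which 91.8% were positive. Up regions lay at 5 of the 7 genes with a tested region, CD44, CD24, EPCAM, ALDH1A3 and PROCR. This is close to the share over all 19990 genes with a tested region, 74.3%. Because most log2FC lie above 0, several values below are also given as the distance from the median of all regions of that line. None of the 10 up regions in 10A lay 1 log2 unit or more above the 10A median.

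In DCIS cells regions were called in both directions. They had 34 tested regions over 8 genes, of which 5 (14.7%) were up, against 23.6% of all 44790 regions. Another 3 regions (8.82%) were down, against 4.86% of all regions, and these 3 were neighbours upstream of SOX9. CD44, CD24, EPCAM and PROCR had up regions. That is 4 of 8 genes, against 32.2% of the 19740 genes with a tested region. SOX9 was the only gene of the 9 with a down region, beside 7.16% of all genes. The log2FC ran from -2.61 to 2.57, with 21 positive and 13 negative values, beside 66.9% positive over all DCIS regions. Their median was 0.38, below the median of 0.52 over all DCIS regions. Whether the changes differed between 10A and DCIS cells was not tested, since each line has a table of its own and no value per library.

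**Figure D1:**
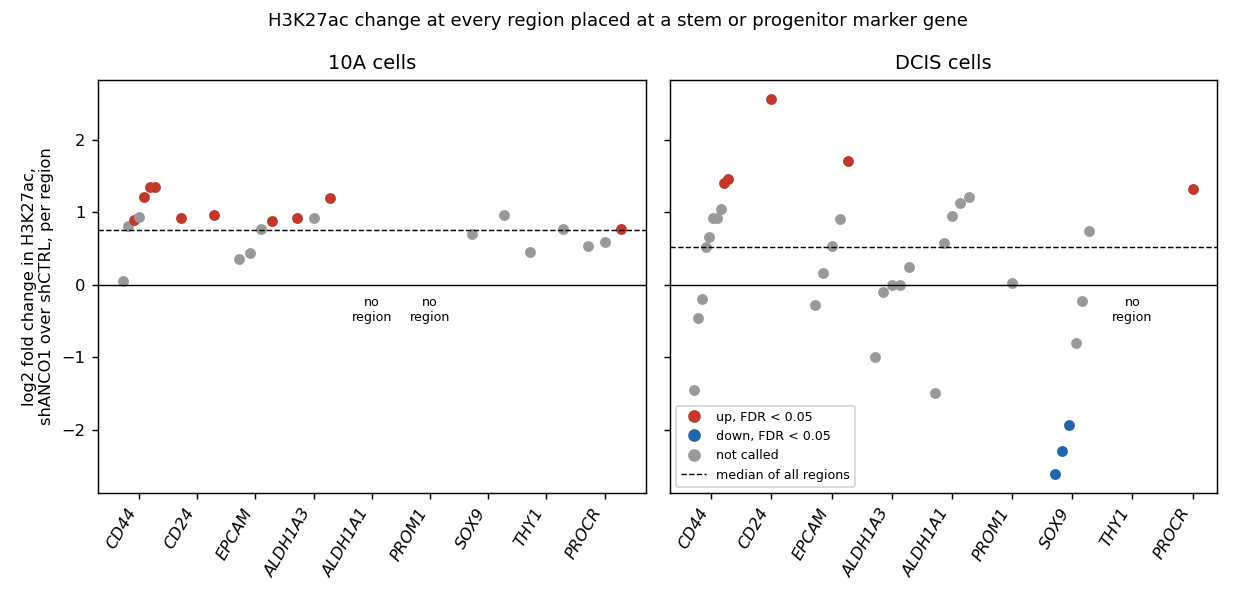
H3K27ac change at every region of the 9 marker genes, with the log2FC of shANCO1 over shCTRL on the y axis and genes on the x axis. Each point is 1 region, coloured by the authors' direction at an FDR under 0.05, and the dashed line is the median of all regions in that line. The 23 points in 10A lie between 0.054 and 1.35, whereas the 34 points in DCIS run from -2.61 at SOX9 to 2.57 at CD24.

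**Figure D2:**
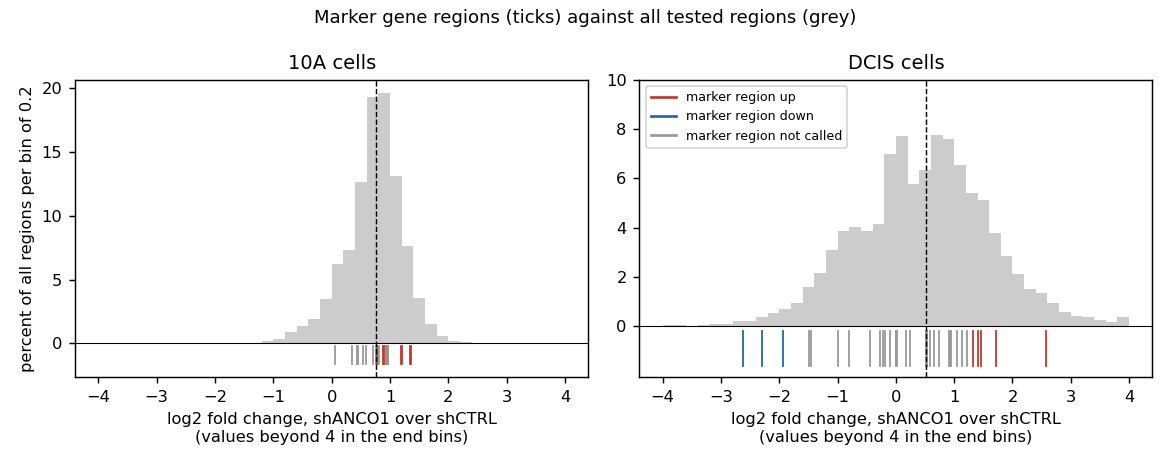
Marker gene regions, drawn as ticks, under the distribution of log2FC over all tested regions of 10A (50284) and DCIS (44790), given as percent of regions per bin. The dashed line marks the median, 0.76 in 10A and 0.52 in DCIS, and values beyond 4 are counted in the end bins. The 10A ticks sit within the bulk of the distribution, and the 3 down ticks and the highest up tick in DCIS sit in its tails.

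CD44 encodes the hyaluronan receptor that marks basal and stem-like mammary cells. It holds more tested regions than any other of the 9 genes, 7 in 10A and 10 in DCIS. In 10A, 4 of 7 CD44 regions were up. The leading region, meaning the one with the lowest FDR, spans chr11:35138401-35142300 over the start site, the first exon and the UTR. There, 28 of 38 windows were up, with a log2FC of 1.35 (0.58 above the median) and an FDR of 1.70e-04. The adjoining intronic region, chr11:35142201-35146000, overlaps its edge and had a log2FC of 1.35 (FDR 0.0200). The authors' annotation also names LOC100507144 at the leading and the adjoining region. A more distal intronic region, chr11:35164701-35168500, had a log2FC of 0.90 (FDR 0.0196). The fourth, chr11:35214301-35214800, lies 75130 bp downstream of the start site and had a log2FC of 1.21 (FDR 0.00538).

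In DCIS, the 2 up regions of CD44 were intronic. At chr11:35164901-35168500, 26 of 35 windows were up with a log2FC of 1.40 (0.88 above the median, FDR 0.00174). At chr11:35143001-35146000, only 5 of 26 windows were up and the log2FC was 1.46 (FDR 0.0212). The start-site region itself, chr11:35138501-35142600, had a log2FC of 0.66 and an FDR of 0.995. The authors' annotation also names CD44-DT there and at chr11:35143001-35146000. Both intronic sites that gained in DCIS overlapped regions that gained in 10A, while the start site passed the threshold in 10A and not in DCIS. The lowest CD44 value in DCIS was -1.45 at chr11:35212301-35212800, where 1 of 4 windows was down, and it missed the threshold (FDR 0.0681).

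The tables against input listed the same intronic sites. A region is called listed here when it was up over input at an FDR under 0.05. The deposited lists were already stricter than this. Their highest FDR was 3.92e-08 in 10A shCTRL, 1.46e-08 in 10A shANCO1 and 1.24e-08 in DCIS shANCO1. Only DCIS shCTRL had lines that missed 0.05, and these were 2. A site that is not listed may therefore have missed a much stricter cut, which is not given, and is not shown to be unmarked. In 10A shCTRL cells, CD44 had 3 listed regions, 1 at the start site and 2 in the distal intron, with log2FC over input of 2.37, 2.59 and 4.31. In 10A shANCO1 cells it had 5, with values from 3.13 to 4.26. The listed length at the start site was 500 bp in 10A shCTRL and 1800 bp in 10A shANCO1 cells. In DCIS shCTRL cells CD44 had a single listed region, at the start site, with a log2FC over input of 2.90. In DCIS shANCO1 cells it had 4, and the values at the distal intron were 7.12 and 7.58. The listed length at the start site was 1200 bp in DCIS shCTRL and 800 bp in DCIS shANCO1 cells. Within the DCIS up region at the distal intron, no base was listed in shCTRL cells and 1600 bp were listed in shANCO1 cells. Each list comes from its own group against input, so the lists are a description of marking and not a test between groups.

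The midpoint sequence of the proximal CD44 intron region of DCIS is shown here because it lies within regions that were up in both lines and holds an AP-1 motif. The midpoint window of the overlapping 10A region lies elsewhere and held no AP-1 match. The whole of that 10A region, 3800 bp, held 2 AP-1 matches. The sequence is the plus strand of GRCh38 at chr11:35144351-35144650, and capitals mark the motif, TGACTCA.
CD44 intron: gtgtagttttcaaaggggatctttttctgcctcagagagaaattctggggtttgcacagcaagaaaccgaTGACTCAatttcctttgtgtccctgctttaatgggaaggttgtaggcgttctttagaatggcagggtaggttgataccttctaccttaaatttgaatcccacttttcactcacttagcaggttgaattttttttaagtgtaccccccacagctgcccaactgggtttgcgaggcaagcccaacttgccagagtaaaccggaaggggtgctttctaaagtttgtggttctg

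**Figure D3:**
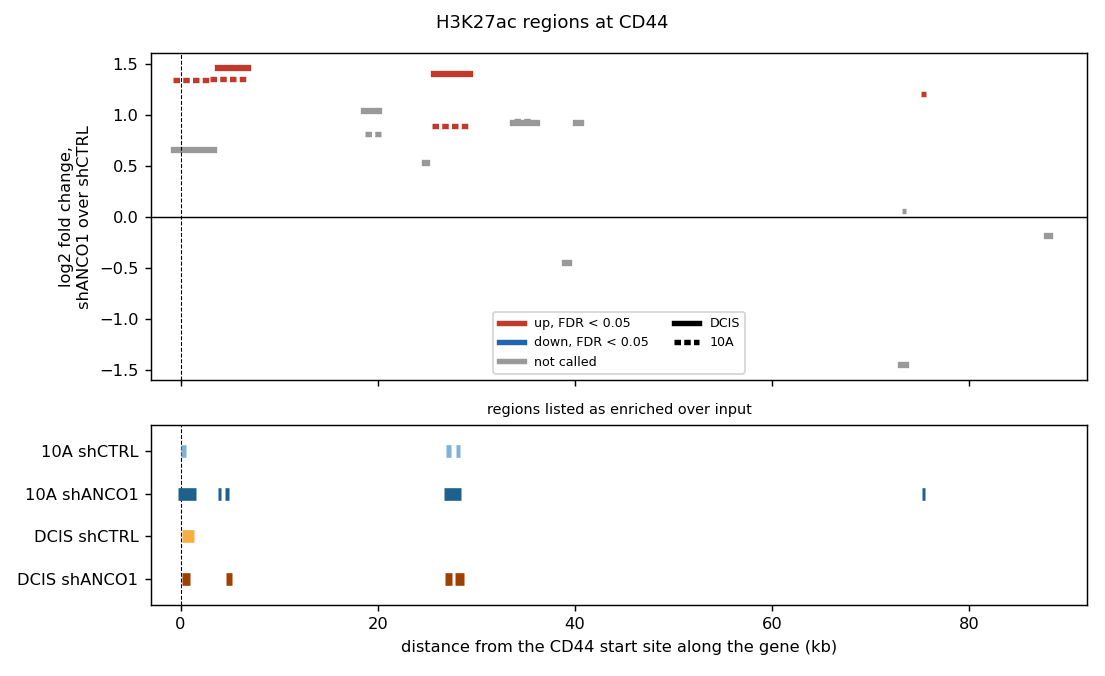
H3K27ac regions along CD44, with distance from the start site in kb on the x axis. The upper panel gives the log2FC of each region, solid for DCIS and dashed for 10A, coloured by call, and the lower panel shows the regions listed over input in each group. The start-site region was up in 10A with a log2FC of 1.35 and not called in DCIS at 0.66, and the distal intron carried listed regions in all groups but DCIS shCTRL.

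CD24 encodes a small glycosylphosphatidylinositol-anchored glycoprotein of luminal cells. It had the largest log2FC among the 9 genes in DCIS. Its single tested DCIS region, chr6:106974001-106974500, had 4 of 4 windows up, a log2FC of 2.57 (2.05 above the median) and an FDR of 1.35e-06. Of all DCIS regions, 96.7% had a lower log2FC. In 10A, the region overlapping that DCIS region, chr6:106973801-106974700, had 8 of 8 windows up with a log2FC of 0.92 (0.16 above the median, FDR 0.0139). Neither region holds the canonical start site. The 10A region lies 29 bp and the DCIS region 229 bp downstream of it. A neighbouring 10A region, chr6:106975401-106975900, had a log2FC of 0.97 (FDR 0.0145). No CD24 region was listed over input in any of the 4 groups, so the gain was at a site absent from these strict lists.

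CD24 has processed copies elsewhere in the genome, and how reads with several matches were treated is not given in the sources used here. Tiles of 50 bases from these regions were looked up, as exact matches only, in the autosomes and the X and Y chromosomes. None of the 10 tiles of the DCIS region and none of the 18 tiles of the overlapping 10A region had an exact copy elsewhere, while 2 of 10 tiles of the neighbouring 10A region did. The value of that neighbouring region is uncertain for this reason. Inexact copies were not searched for, so the other CD24 regions are not shown to be free of reads from the copies. The sequence shared by the DCIS region and the 10A region that overlaps it is shown because it carries that largest log2FC. It is given on the plus strand at chr6:106974101-106974400, with a TEAD motif in capitals, read as GGAATG on the minus strand. The stretch lies downstream of the canonical start site and does not hold it.
CD24 start-site region: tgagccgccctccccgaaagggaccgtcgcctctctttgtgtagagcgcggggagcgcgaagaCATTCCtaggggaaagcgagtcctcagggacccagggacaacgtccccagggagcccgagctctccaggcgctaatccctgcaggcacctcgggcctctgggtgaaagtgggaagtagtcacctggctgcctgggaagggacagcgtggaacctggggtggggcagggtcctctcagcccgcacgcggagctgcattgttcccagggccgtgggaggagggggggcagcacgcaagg

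EPCAM encodes the epithelial cell adhesion molecule. Its gain lay away from the start site of its canonical transcript in both lines. In 10A, the leading region was chr2:47353901-47355600, in an intron of a longer transcript, where 12 of 16 windows were up with a log2FC of 0.88 (0.12 above the median, FDR 0.00597). In DCIS it was chr2:47339401-47340800, where 9 of 13 windows were up with a log2FC of 1.71 (1.19 above the median, FDR 5.60e-04). The DCIS region ends at -28511 bp from the canonical start site, and the authors' annotation also names BCYRN1 and EPCAM-DT there. The overlapping region in 10A had a log2FC of 0.35 (FDR 0.648).

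At the canonical start site of EPCAM neither line passed the threshold. The values were 0.44 in 10A (FDR 0.188) and -0.27 in DCIS (FDR 0.871). This start site was nevertheless listed over input in DCIS cells, with a log2FC over input of 2.95 in shCTRL and of 7.43 and 5.01 in shANCO1. In 10A it was listed in shANCO1 cells only, at 2.79, while the intron was listed at 4.66 in shCTRL and 4.55 in shANCO1. The upstream region that rose in DCIS was listed over input in neither DCIS group. Its midpoint sequence, chr2:47339951-47340250 on the plus strand, is shown with an AP-1 motif in capitals, which reads TGACTCA on the minus strand.
EPCAM upstream region: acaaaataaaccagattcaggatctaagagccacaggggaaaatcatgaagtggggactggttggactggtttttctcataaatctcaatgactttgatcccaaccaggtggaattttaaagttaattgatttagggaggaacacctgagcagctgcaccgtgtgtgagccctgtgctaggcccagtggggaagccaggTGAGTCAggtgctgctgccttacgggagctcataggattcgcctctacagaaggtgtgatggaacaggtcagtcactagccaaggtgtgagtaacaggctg

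PROCR encodes the endothelial protein C receptor, which marks a population of multipotent mammary stem cells. Its start-site region was up in both lines. In 10A, chr20:35171201-35173300 had 5 of 17 windows up and a log2FC of 0.77 (FDR 0.00625), only 0.0047 above the median of all 10A regions. In DCIS, chr20:35172201-35172600 had 3 of 3 windows up and a log2FC of 1.33 (0.81 above the median, FDR 0.0147). PROCR was listed over input in 10A shANCO1 cells only, with a log2FC over input of 2.35. The other 2 PROCR regions of 10A had log2FC of 0.54 and 0.59 and were not called. They lie 27729 and 43529 bp downstream of the start site, where the authors' annotation also names MMP24-AS1-EDEM2. The RefSeq promoter of PROCR lies within the 10A region. The 250 bases upstream of its start, chr20:35171822-35172071 on the plus strand of GRCh38.p14, hold none of the 4 motifs searched, so no base is in capitals.
PROCR upstream: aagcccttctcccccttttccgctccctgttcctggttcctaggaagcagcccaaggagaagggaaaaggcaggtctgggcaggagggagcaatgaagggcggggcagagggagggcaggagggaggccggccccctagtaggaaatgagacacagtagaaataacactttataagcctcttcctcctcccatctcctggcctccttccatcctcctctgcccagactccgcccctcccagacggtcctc

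THY1 and PROM1 gave no called region. THY1 encodes a surface glycoprotein of basal and mesenchymal cells. It had 2 tested regions in 10A, with log2FC of 0.46 (FDR 0.404) and 0.77 (FDR 0.258), and none in DCIS. PROM1 encodes CD133, a cholesterol-binding membrane protein used as a stem cell marker. It had none in 10A and 1 intronic region in DCIS, with a log2FC of 0.023 (FDR 0.997). Neither gene was listed over input in any group.

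The aldehyde dehydrogenases differed in where they were tested. ALDH1A3 and ALDH1A1 encode retinaldehyde dehydrogenases that contribute to the activity measured in progenitor assays. In 10A, ALDH1A3 had 2 up regions of 3. Its leading region, chr15:100917501-100920600, lies beyond the 3' end of the gene toward LRRK1, so the assignment to ALDH1A3 is by proximity. It had a log2FC of 1.19 (0.43 above the median, FDR 0.00896), with 3 of 26 windows up. A 200 bp region of 1 window near the start, chr15:100879001-100879200, had a log2FC of 0.93 (FDR 0.0380). The start-site region, at 0.93, missed the threshold (FDR 0.0562). In DCIS none of the 5 ALDH1A3 regions was called, and their log2FC ran from -0.99 to 0.24. The downstream site was listed over input in all 4 groups, with log2FC over input of 2.86 in 10A shCTRL, 3.56 in 10A shANCO1, 5.50 in DCIS shCTRL and 4.0 in DCIS shANCO1.

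ALDH1A1 had no tested region in 10A and 5 in DCIS, none of them called. The lowest FDR was 0.0630, at chr9:73078901-73079500 with a log2FC of 1.13. This region is intronic and lies at -125848 bp from the canonical start site. The lowest log2FC was -1.49 at chr9:72923901-72926400 over a coding exon (FDR 0.171). Within it, DCIS shCTRL cells had 300 bp listed over input, with a log2FC over input of 3.73, and no base listed in DCIS shANCO1 cells. The direct comparison of the hairpins at this exon did not pass the threshold.

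SOX9 was the gene with losses, all in DCIS. There, 3 regions in a row upstream of the start site were down. The nearest, chr17:72115001-72118700, ends at -2320 bp from the start site. It had 34 of 36 windows down, a log2FC of -1.93 (-2.46 from the median) and the lowest FDR of the 3, 1.38e-05. The next, chr17:72113201-72114700, had 12 of 12 windows down and a log2FC of -2.61 (FDR 0.00132). Only 0.538% of all DCIS regions had a lower log2FC. The most distal, chr17:72110801-72111800, had 3 of 6 windows down and a log2FC of -2.30 (FDR 0.00142). The authors' annotation names SOX9-AS1 and LOC102723517 at these sites too, so the losses belong to an upstream segment held in common and not to SOX9 alone.

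The loss did not extend over the SOX9 gene at the threshold used. The start-site region, chr17:72118601-72122300, had a log2FC of -0.80 and an FDR of 0.352, with none of 36 windows down. The region over the rest of the gene had a log2FC of 0.74 (FDR 0.579). In 10A, the 2 regions at SOX9 had log2FC of 0.96 (FDR 0.0573) and 0.70 (FDR 0.0842). They overlapped the start-site region of DCIS, and no region was tested in 10A where the DCIS losses lay.

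SOX9 was also the most broadly marked of the 9 genes in DCIS shCTRL cells, with 5 regions listed over input. Their log2FC over input lay between 3.18 and 4.16. In DCIS shANCO1 cells it again had 5, between 3.04 and 5.28. Under the nearest down region, 2000 bp were listed in shCTRL cells and 200 bp in shANCO1 cells. Under the start-site region, 3000 bp and 2900 bp were listed. Under the next and the most distal down regions, 0 bp were listed in either DCIS group. The annotation names SOX9 at those regions only as right neighbour. SOX9 was listed over input in neither 10A group. The midpoint of the nearest down region, chr17:72116701-72117000 on the plus strand, is shown because it carries the lowest FDR of the losses. Capitals mark a match to the NF-kB motif.
SOX9 upstream region: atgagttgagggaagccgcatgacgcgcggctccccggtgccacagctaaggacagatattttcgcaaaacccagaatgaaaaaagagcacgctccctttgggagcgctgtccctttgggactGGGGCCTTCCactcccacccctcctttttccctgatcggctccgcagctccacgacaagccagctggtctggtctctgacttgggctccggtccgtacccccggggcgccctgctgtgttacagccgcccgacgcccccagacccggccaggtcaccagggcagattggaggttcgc

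**Figure D4:**
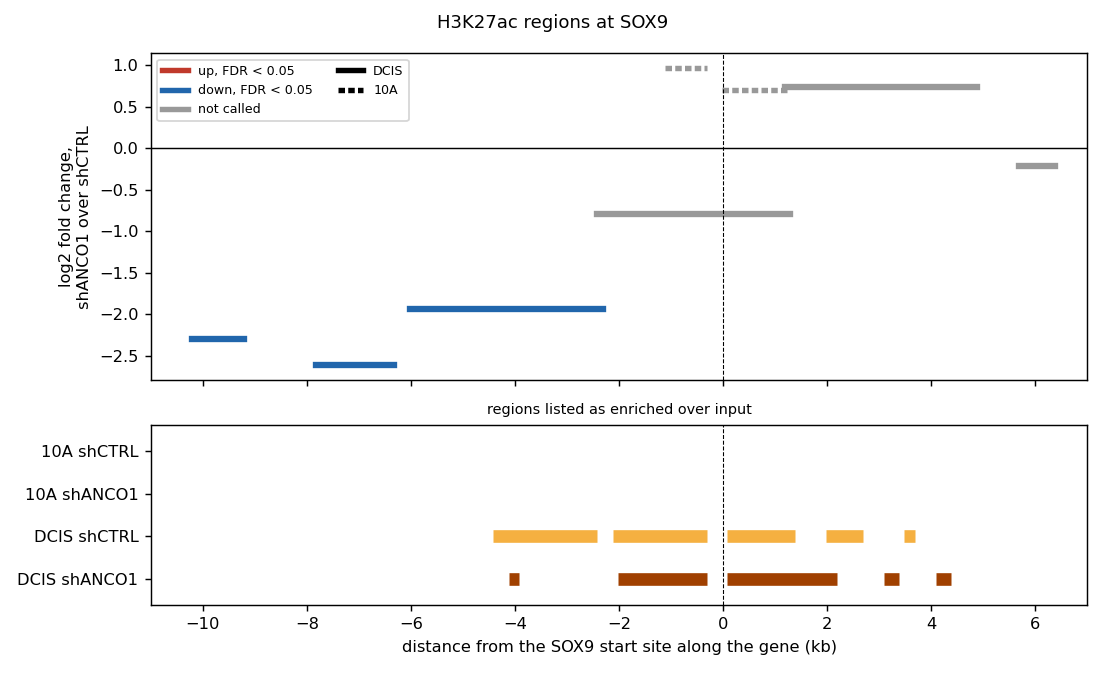
H3K27ac regions at SOX9, with distance from the start site in kb on the x axis. The upper panel gives the log2FC of each region, solid for DCIS and dashed for 10A, and the lower panel shows the regions listed over input in each group. The 3 blue DCIS regions upstream of the start site lie at -2.30, -2.61 and -1.93, the start-site region lies at -0.80 without a call, and the listed stretch under the nearest loss is 2000 bp in shCTRL and 200 bp in shANCO1.

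Over the 9 genes, marking against input was as follows. In 10A shCTRL cells 3 of 9 genes were listed (CD44, EPCAM and ALDH1A3), beside 48.5% of all 21569 symbols. In 10A shANCO1 cells 4 of 9 were listed, with PROCR added, beside 75.7%. In DCIS shCTRL cells 5 of 9 were listed (CD44, EPCAM, ALDH1A3, ALDH1A1 and SOX9), beside 56.3%. In DCIS shANCO1 cells the 4 were CD44, EPCAM, ALDH1A3 and SOX9, beside 60.1%. The listed length at these genes was 2300 bp and 7600 bp in 10A shCTRL and shANCO1, and 8600 bp and 9500 bp in DCIS. In regions, this was 5 and 9 in 10A shCTRL and shANCO1, and 10 and 13 in DCIS shCTRL and shANCO1. The lists over all genes also grew, from 15490 to 28607 regions in 10A and from 15482 to 16692 in DCIS. The listed length over all genes was not computed, so only the counts of regions can be set side by side. CD24, PROM1 and THY1 were listed in no group.

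**Figure D5:**
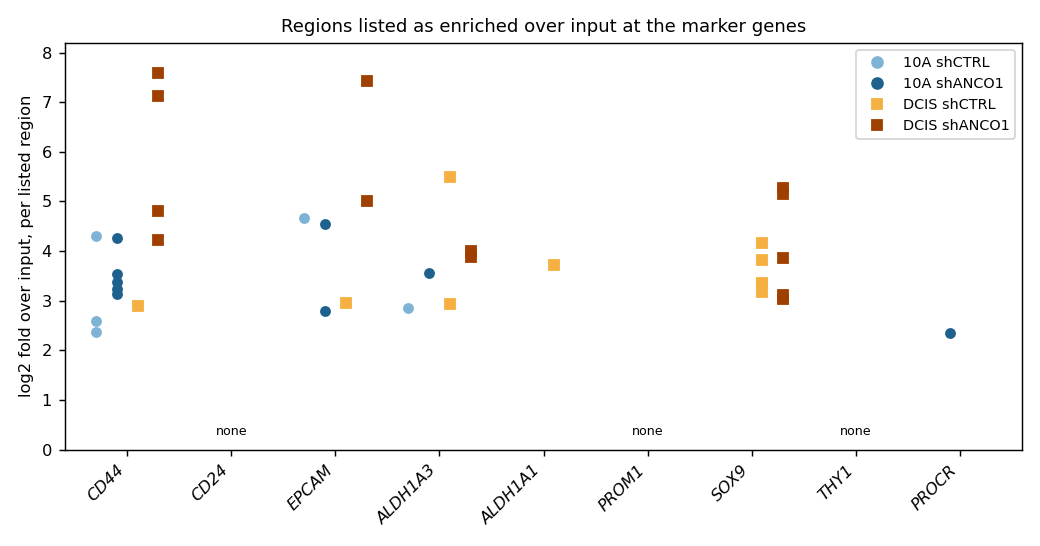
Regions of the 9 genes listed as enriched over input, with the log2FC over input on the y axis and genes on the x axis. Each point is 1 region, with circles for 10A, squares for DCIS and a darker shade for shANCO1. The highest values are 7.58 at CD44 and 7.43 at EPCAM in DCIS shANCO1 cells, and CD24, PROM1 and THY1 have no listed region.

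Regions of the 2 lines overlapped in 19 pairs at these genes. In 4 pairs both regions were up, 2 of them intronic in CD44 and 1 each at CD24 and PROCR. In 6 pairs the 10A region was up and the DCIS region was not called, and these lay at CD44, EPCAM and ALDH1A3. The pairs are not all distinct regions. The adjoining intronic CD44 region of 10A stands here through a 400 bp overlap and also among the pairs up in both lines. The downstream ALDH1A3 region of 10A is counted more than once. In 1 pair, upstream of EPCAM, the DCIS region was up and the 10A region was not called. The remaining 8 pairs had no call in either line.

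Motifs of factors the study examined were counted on both strands in the 300 bases at the midpoint of each region. They were AP-1 (TGACTCA), TEAD (GGAATG), STAT (TTCCNGGAA) and the NF-kB motif, and the bases GGAA can belong to a STAT and a TEAD match at once. AP-1 was present in 2 of 23 marker regions in 10A, against 11.1% of all regions, and in 5 of 34 in DCIS, against 9.40%. Of the 10 up regions in 10A, 1 held it, beside 12.8% of all up regions. Of the 5 up regions in DCIS, 2 held it, and none of the 3 down regions of SOX9 did, beside 15.6% and 5.47% of all up and down regions. TEAD matches were found in 4 of 23 and 4 of 34 marker regions, against 18.0% and 17.4%. NF-kB matches were found in 3 of 23 and 3 of 34, against 8.42% and 9.52%. STAT matches were found in 1 of 23 and 0 of 34, against 1.13% and 1.08%. In the RefSeq table of promoters, 11 promoters matched 6 of the 9 genes, and EPCAM, SOX9 and THY1 had no entry. AP-1 was in 1 of the 11, against 4.95% of all 35116 promoters of the table, TEAD in 1 against 14.0%, and NF-kB in 2 against 11.3%. A match is a run of letters and does not show that a factor was bound.

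The wider series was checked in brief. H3K27ac at ANKRD11 does not measure the knockdown, since the hairpin acts on RNA. ANKRD11 had 7 of 20 regions up in 10A and 8 of 16 in DCIS, with leading log2FC of 1.28 (FDR 8.86e-05) and 1.88 (FDR 2.62e-05). Epithelial markers were listed over input, 5 of 7 in the 10A groups and 6 of 7 in the DCIS groups, with KRT14 listed in none. Of the hormone-sensing luminal markers, ESR1 and GATA3 were listed in every group and PGR in none. No leukocyte marker of 3 was listed in any group. PECAM1 was the only endothelial marker of 3 listed, in every group, and PDGFRA the only fibroblast marker of 3, in all groups except DCIS shCTRL. The part of other cell types in these results was not tested.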

How the data were processed

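H3K27ac ChIP-seq and input libraries were described in 24 labels, in 8 groups of 3. Per the study's methods and the processing notes, the authors used BWA and Rsubread for alignment to GRCh38, SAMtools for sorting and deduplication, and csaw for differential binding. The authors deposited 6 tables of regions, 2 of shANCO1 against shCTRL and 4 of an immunoprecipitated group against input, and pooled the libraries of a group into 1 line per region. These tables hold the authors' own comparisons and no other measure. The deposited log2 fold change is that of a representative window, and the deposited p-value and FDR combine the windows of a region. Window numbers, directions and gene annotations were also deposited. Normalization, window filters, the merging distance, the prior count and which inputs entered are not given in the sources used here. Since the zero of a log2 fold change depends on normalization, all values of a table could shift together.

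Regions were assigned to a gene by the symbol in the authors' overlap, left or right annotation. Calls used FDR under 0.05 and the authors' direction, and no p-value was computed here. The leading region was that with the lowest FDR, which favours large changes, and the start-site region was that with a promoter annotation or nearest to the GENCODE release 44 start site. All 9 genes were named, with ANKRD11 and, from a list of 34 other stem and progenitor genes, the 4 with the lowest FDR and the 2 with the largest fall in each line. The genes, the list and the rules were chosen with earlier results of these data known. Sequences were read from hg38 and from RefSeq promoters (GRCh38.p14). Counting and motif scripts were tested on simulated data. Python 3.11.15, pandas 2.3.3, numpy 2.4.6 and matplotlib 3.10.9 were used. Alternatives were stricter and looser FDR, minimum log2 fold change, centring on the median, at least 5 windows, other gene assignment rules and the start-site region. Coordinates are 1-based.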

Additional observations from a re-analysis of the deposited data

How the results depend on the processing

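Counts at the marker genes depended on the calling rule. Of the 10 up regions in 10A, 5 passed at FDR under 0.01, 4 had a log2FC of at least 1, and 0 exceeded the median of all regions by 1 log2 unit or more. Of the 5 up regions in DCIS, 3 passed at FDR under 0.01, 2 exceeded that median by as much and 3 had at least 5 windows. The 3 down regions in DCIS, all upstream of SOX9, became 1 when only the overlap annotation was used and 1 with the gene body and 5 kb upstream in GENCODE. The count of down regions in 10A was 0 under every alternative tried. With at least 5 windows required, the number of genes listed over input changed from 3 to 1 in 10A shCTRL, from 5 to 3 in DCIS shCTRL and from 4 to 2 in DCIS shANCO1, and an FDR under 1e-10 also gave 3 in DCIS shCTRL. Taking the start-site region in place of the leading region turned EPCAM in DCIS from 1.71 to -0.27, and left EPCAM in 10A (0.44), ALDH1A3 in 10A (0.93), CD44 in DCIS (0.66) and SOX9 in DCIS (-0.80) without a call. For the other stem and progenitor genes, an FDR under 0.01, chosen after seeing the data, gave 40 up regions in place of 61 in 10A and 0 down in place of 2 in DCIS. Each stricter rule keeps fewer regions by construction, and the cause of the start-site differences was not tested.

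No paired analysis was possible because the tables hold 1 value per region for whole groups, and leaving out single replicates was not possible for the same reason. Library depth and replicate spread are unknown, so a region without a call is not shown to be unchanged, and a gene with no tested region was not measured in that line.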

Other observations

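Among 34 other genes associated with mammary stem and progenitor cells, up regions were also found in both lines. In 10A, 61 of 122 regions were up, beside 43.6% of all regions, and none was down, with a median log2FC of 0.85, and 22 of the 27 genes with a tested region had an up region, beside 74.3% of all genes. Surface markers held 42 of these up regions out of 71, transcription factors 7 of 17 and other aldehyde dehydrogenases 12 of 34. Many of the surface marker regions lay at ITGB1 (11 of 13 regions up) and NT5E (7 of 10 up), so the share of up regions rests in part on these genes. The lowest FDR values belonged to NT5E, the ectonucleotidase CD73 (log2FC 1.34, FDR 3.77e-08), to SNAI2, a transcription factor of basal cells (1.37, FDR 3.25e-07), to MME, the basal marker CD10 (1.74, FDR 4.56e-06), and to ITGB1, the integrin beta chain of basal cells (1.12, FDR 5.84e-06).

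In DCIS, 41 of 132 regions (31.1%) at these genes were up and 2 (1.52%) were down, beside 23.6% and 4.86% of all regions, with a median log2FC of 0.71. Many of the up regions lay at ITGB1 (11 of 13 regions up) and ALDH1A2 (9 of 19 up), so the share of up regions rests largely on these genes. Of the 26 genes with a tested region, 11 had an up region and 2 a down region, beside 32.2% and 7.16% of all genes. The lowest FDR values were at ITGB1 (5.35, FDR 2.56e-10), NT5E (4.37, FDR 3.58e-09, a region of 1 window), CDH3, which encodes P-cadherin (2.49, FDR 3.53e-07), and ALDH3B2, a further aldehyde dehydrogenase (3.11, FDR 6.31e-07). The falls were at SOX10, a neural crest and mammary progenitor transcription factor (-1.58, FDR 0.0143), and at ALDH1A2, a retinaldehyde dehydrogenase (-1.41, FDR 0.0446). At ALDH1A2 this was 1 region of 19, and 9 others were up, led by a log2FC of 2.54 (FDR 3.08e-05). LGR5, SOX2, POU5F1 and NANOG had no tested region in either line.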
